A study of Mus musculus with 15 samples.

Results

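The restimulation response of Asb2-deleted T helper 2 (Th2) cells was taken as the comparison of 4 stimulated with 3 non-stimulated libraries of conditional knockout (cKO) cells, chosen by their sample labels, which are 7 of the 15 libraries of the series. The cKO cells came from female mice carrying floxed alleles of Asb2 (Asb2fl/fl) with a VE-cadherin (VEC)-Cre transgene, and the control cells, used here only for the test of the difference between genotypes, from female Asb2fl/fl mice without Cre. This Cre is driven by a promoter used by endothelial cells and by progenitors of the blood lineages, so the deletion was not limited to T cells. Naive CD4+ T cells from spleen were turned into Th2 cells in culture with anti-CD3ε, anti-CD28, interleukin 2, interleukin 4 and an antibody against interferon gamma, then kept in the 2 interleukins without antibodies. For restimulation on day 5, anti-CD3ε coated on the plate (3 µg/ml) and anti-CD28 in solution (2 µg/ml) were given for 24 h, while non-stimulated cells received neither. Whether libraries of a group stem from separate animals is not stated, and the p-values therefore cover only the spread between these libraries, which may be technical.

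Th2 cells are helper T cells of type 2 immunity, known for making interleukins 4, 5 and 13 when their antigen receptor is engaged again. Anti-CD3ε engages the receptor complex and anti-CD28 the costimulatory receptor, and the signal runs through kinases and adaptors to the NFAT, AP-1 and NF-kappaB transcription factors. Feedback regulators and inhibitory receptors then limit the signal, while growth programs supply amino acids, ribosomes and secretory capacity. The ASB2 protein picks the substrates of a cullin ubiquitin ligase, among them filamins, which crosslink actin.

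The targeted gene was examined first. Asb2 (ENSMUSG00000021200) had 12.7, 22.7 and 22.1 CPM (counts relative to the scaled library size) in non-stimulated cKO replicates 1 to 3 and 9.58, 9.59, 9.44 and 9.36 CPM in stimulated replicates 1 to 4. The 4 stimulated libraries lay within a narrow band below all 3 non-stimulated libraries. Asb2 fell during restimulation of cKO cells, with a log2 fold change of -1.01 ± 0.20 (standard error, SE; edgeR adjusted p = 4.5e-04). Control cells held 36.7 and 33.5 CPM on average before and after stimulation. The difference of the cKO from the control response was -0.88 ± 0.27 (unadjusted p = 0.0052) and did not pass the edgeR test over all genes (adjusted p = 1). The floxed exons are not named in the labels, and reads from any exon left in place count toward these values.

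Totals ran from 17.2 to 24.2 M estimated counts over the 7 cKO libraries. The first principal component of their log2 CPM held 75.8% of the variance and separated the conditions, and the second, with 7.64%, set stimulated replicate 3 apart. Mitochondrially encoded genes took 4.36% to 4.89% of counts in non-stimulated libraries and 5.44%, 5.46%, 9.43% and 6.24% in stimulated replicates 1 to 4. The mean share was 4.61% ± 0.264 (SD, n = 3) before and 6.64% ± 1.89 (SD, n = 4) after stimulation. The groups did not overlap, and the two-sided exact permutation p of 0.0571 is the smallest this design allows. Without stimulated replicate 3 the stimulated mean was 5.71% ± 0.458 (SD, n = 3; exact permutation p = 0.1, the smallest possible). The part of this share in the results was not tested.

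**Figure D1:**
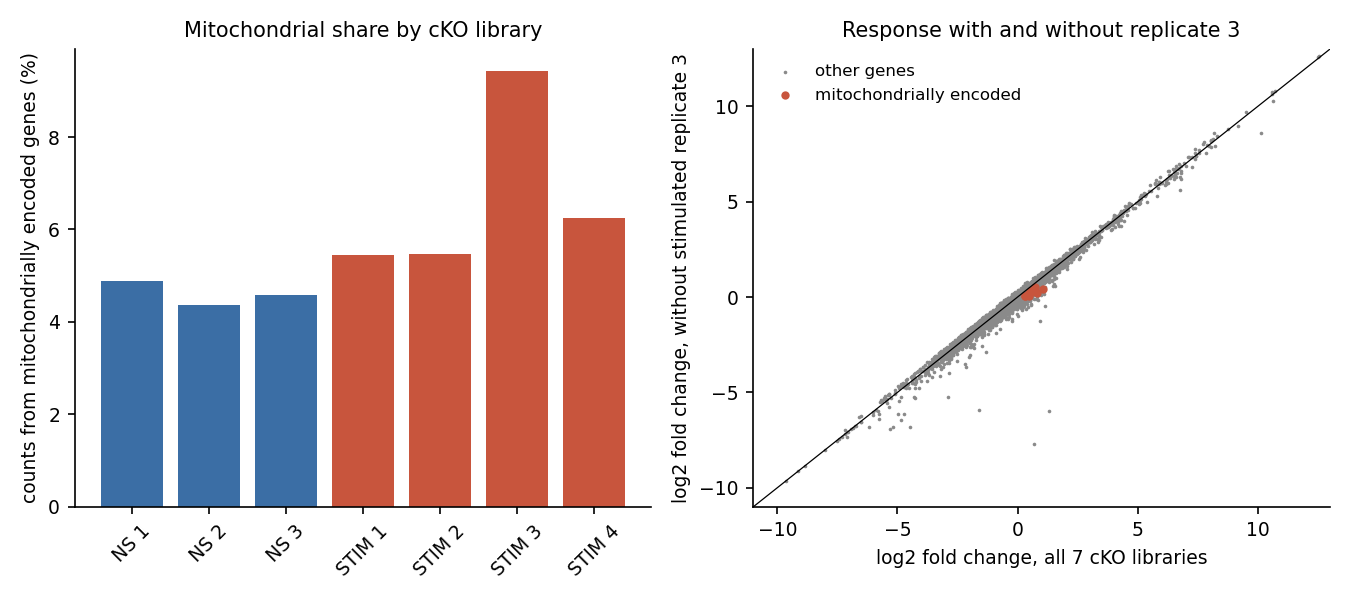
Left, share of counts from mitochondrially encoded genes (percent) in each cKO library, non-stimulated (NS) and stimulated (STIM); replicate 3 of the stimulated cells stands at 9.43%. Right, log2 fold change of each gene without stimulated replicate 3 (vertical) against that with all 7 cKO libraries (horizontal), with mitochondrially encoded genes in red; most genes lie on the line of equality and the red points lie below it.

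Of 15619 genes with enough counts, 8398 (53.8%) passed the test at an edgeR adjusted p under 0.05. Among them 4171 rose (26.7% of genes tested) and 4227 fell (27.1%), and 1326 rose (8.49%) and 1842 fell (11.8%) by at least 2-fold. The groups of libraries did not overlap for 8444 genes (54.1%), and the median log2 fold change of all genes was -0.009. The scaling of the libraries takes most genes as unchanged, so it helps set this median and the balance of rises and falls. Each rise or fall is relative to the other genes, and total RNA per cell is not known from these libraries. Counts over the gene lists described next are read against the shares of 26.7% and 27.1%. Fewer genes were called on the TPM scales (length-scaled transcript abundance), and list counts on those scales are read against their own totals. On log2(TPM + 0.1) 2583 of the 15619 genes rose and 3443 fell, and on log2(TPM + 1) 2526 rose and 3488 fell. Leaving out stimulated replicate 3 gave 4020 higher and 3960 lower genes. Of the calls with all libraries that could be compared, 3878 of 4164 higher and 3808 of 4227 lower genes were then called in the same direction, and 0 in the opposite one. The log2 fold changes differed by less than 0.5 for 99% of genes. These are bulk libraries, in which fewer cells of a type and less RNA per cell cannot be told apart.

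**Figure D2:**
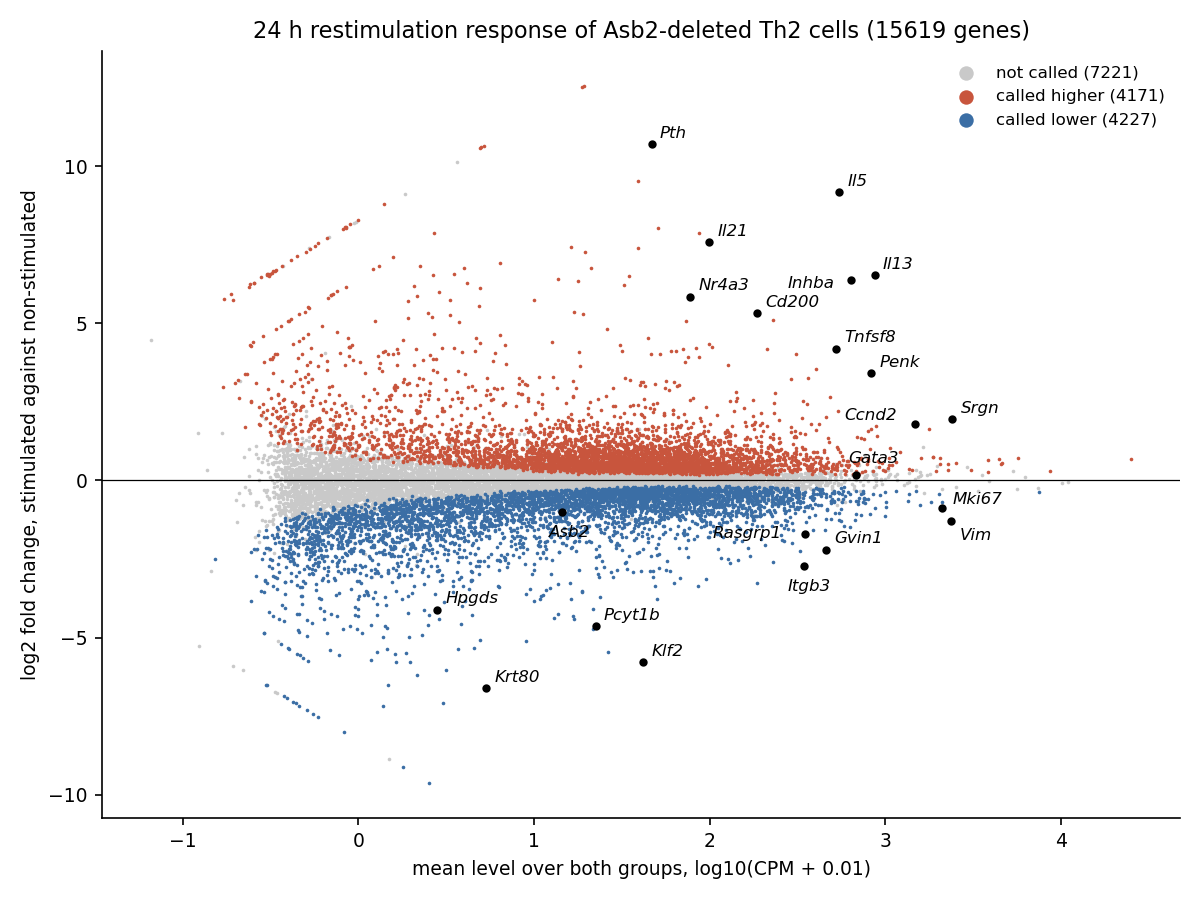
Log2 fold change of stimulated against non-stimulated cKO cells (vertical) against the mean level of both groups as log10(CPM + 0.01) (horizontal) for 15619 genes, coloured by the test (4171 higher, 4227 lower). Named genes are marked in black: secreted factors such as Il5, Il13, Inhba and Pth lie at the top, and Klf2 and Krt80 at the bottom.

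The signature cytokines of Th2 cells rose in every stimulated library. Il5, whose product supports eosinophils, was at 1.78, 2.32 and 1.54 CPM in the non-stimulated libraries and 1021, 1056, 1512 and 766 CPM in the stimulated ones. Il13, which acts on epithelium and smooth muscle, went from 11.2, 27.5 and 17.4 CPM to 2079, 1811, 1591 and 1389.7 CPM. Il4, the cytokine that drives the Th2 fate, went from 6.21, 10.2 and 5.49 CPM to 142, 125, 181 and 84.2 CPM. For each of these 3 genes the lowest stimulated library stood above the highest non-stimulated one, and stimulated replicate 4 was the lowest of the 4 in each. Per transcript length, on the authors' TPM scale, the stimulated means were 1686 for Il13, 766 for Il5 and 350.2 for Il4. Gata3, whose product sets up the Th2 program, had 650.0, 735 and 545 CPM before and 826, 761, 640.3 and 661 CPM after stimulation. Its groups overlapped and it was not called (log2 fold change 0.17 ± 0.11; edgeR adjusted p = 0.21).

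In the list of 28 secreted interleukins and growth factors 24 had enough counts, of which 21 rose and 2 fell. Their median was 4.26, also when the 4 members without a count before stimulation were set to their lower bound. Those 4 passed the count filter only through other groups of libraries, so their part in this count of rises was largely fixed in advance. Il1a and Il3, cytokines of inflammation and of myeloid growth, had 0 counts in all 3 non-stimulated libraries. They reached 53.8, 43.6, 31.8 and 24.5 CPM (Il1a) and 56.7, 35.3, 33.8 and 23.8 CPM (Il3) in the stimulated ones. Against a floor of 3 counts over the group, Il1a was at least 797-fold and Il3 at least 765-fold higher. Il2, the T cell growth factor, and Il9, a mast cell growth factor, also had no count before stimulation and were at least 199.5-fold and 33.6-fold higher. Il21, which acts on B cells and cytotoxic T cells, rose from 1.53, 1.48 and 0.181 CPM to 182, 196, 208 and 202 CPM (7.57 ± 0.40; edgeR adjusted p = 4.4e-09), and its 4 stimulated values were close together.

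Several other members of this list were named after their values were seen. Lif and Il24, of the interleukin 6 and interleukin 10 families, rose by 3.25 ± 0.17 and 3.53 ± 0.32 on the log2 scale to means of 659 and 737 CPM. Il10, a regulatory cytokine, rose by 2.54 ± 0.33, from 73.7, 111 and 113 CPM to 539, 618, 778 and 368 CPM. Csf2, the gene of the granulocyte-macrophage growth factor, rose by 5.09 ± 0.30, and Il6 by 3.94 ± 0.55. Areg, an epidermal growth factor receptor ligand of tissue repair, had 0.0509, 0.633 and 0.454 CPM before and 30.6, 39.3, 75.9 and 20.8 CPM after stimulation. Ifng, the signature cytokine of Th1 cells, had 0.560, 0.897 and 1.09 CPM before and 90.0, 70.4, 70.4 and 24.4 CPM after stimulation (6.21 ± 0.90; edgeR adjusted p = 1.2e-04). Stimulated replicate 4 was the lowest of the 4 for both Areg and Ifng.

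Inhba, which encodes a subunit of activin A, a factor of the TGF-beta superfamily, was among the genes that gained most CPM. It had 14.1, 21.2 and 10.0 CPM before and 1094, 1407, 1366 and 1135 CPM after stimulation, a log2 fold change of 6.38 ± 0.34 (edgeR adjusted p = 3.3e-09). Penk, the gene of the opioid precursor proenkephalin, had 153, 138 and 138 CPM before and 1653, 1485, 2224 and 692 CPM after stimulation (3.41 ± 0.33; edgeR adjusted p = 1.5e-06). The non-stimulated libraries agreed closely for Penk, while the stimulated ones ranged over more than 3-fold. Srgn, whose product serglycin packs secretory granules, had 931, 1038 and 989 CPM before and 3154, 3429, 5752 and 2959.5 CPM after stimulation, highest in replicate 3. The hormone gene Pth went from 3 counts in all to 7457, a ratio of 1912 between the groups (95% exact binomial interval 654 to 9274, counting error only).

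**Figure D3:**
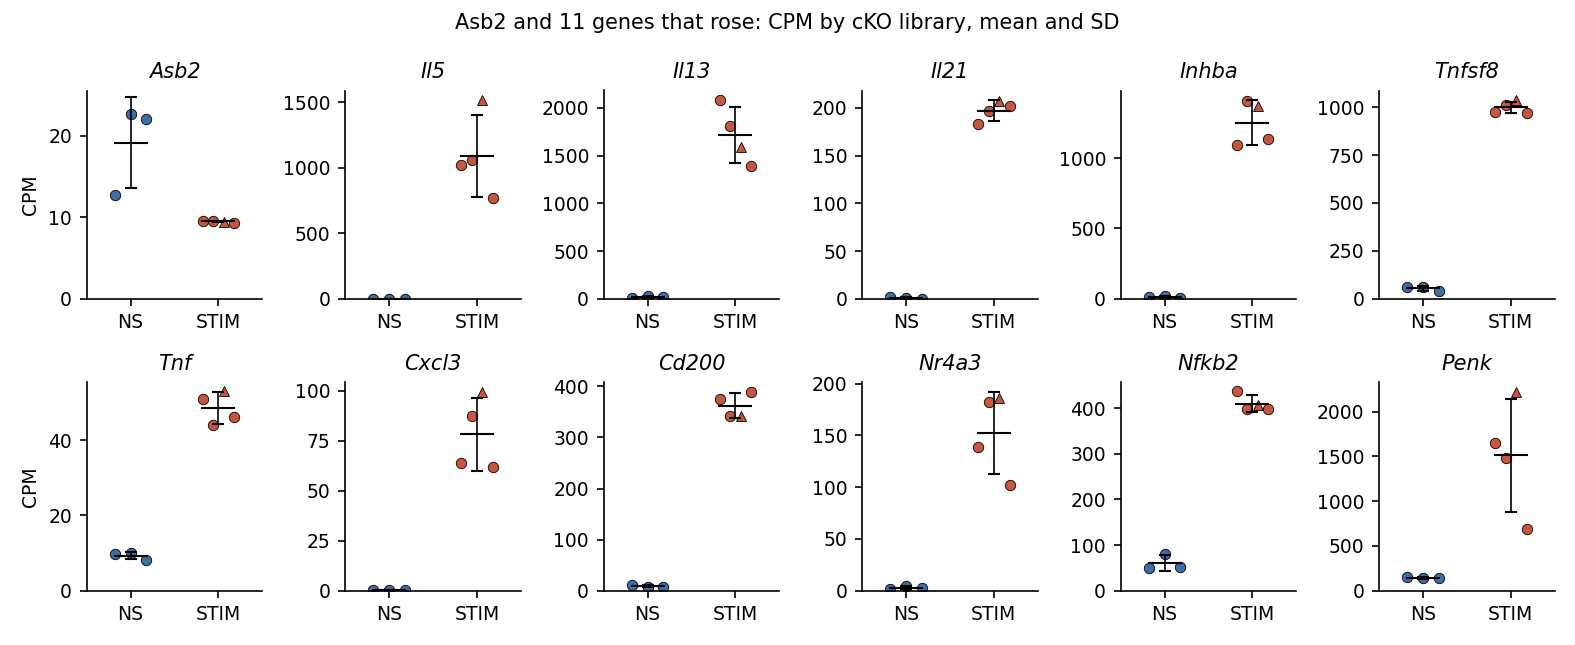
CPM of Asb2 and of 11 genes that rose, in each non-stimulated (NS, blue) and stimulated (STIM, red) cKO library; points are libraries, triangles mark stimulated replicate 3, and bars give the mean and SD. Each gene has its own linear axis from 0, and the groups do not overlap in any panel.

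Chemokine ligands, which attract other leukocytes, had the highest median of the 37 gene lists. Of 14 listed genes 8 had enough counts, of which 7 rose and none fell, with a median of 6.94 (5.65 with Ccl1 at its lower bound). The other 6 stayed under the count filter. That filter keeps a gene with enough counts in any group, so members nearly silent before stimulation could enter mainly through stimulated libraries. The count of rises and the rank of this median therefore partly follow from the filter. The neutrophil attractant Cxcl3 went from 0.458, 0.528 and 0.408 CPM to 64.0, 87.3, 99.3 and 61.9 CPM (7.38 ± 0.44; edgeR adjusted p = 1.7e-08), and its neighbour Cxcl2 from 1 count to 409, a ratio of 315 (95% interval 56.2 to 12457). Ccl9 went from 0, 0.211 and 0.318 CPM to 29.9, 30.8, 35.4 and 32.9 CPM, and Ccl3, a ligand of CCR1, from 0.509, 0.475 and 1.22 CPM to 65.3, 74.4, 92.7 and 43.1 CPM. The first 3 of these genes had under 1 CPM in every non-stimulated library. Ccl1, a ligand of CCR8, had no count before stimulation and was at least 24.6-fold higher after it. Ccr8 itself, named after its value was seen, also rose (1.19 ± 0.25). With so few counts before stimulation, fitted values moved with single libraries: without non-stimulated replicate 3 the log2 fold changes of Ccl9 and Ccl3 were 8.20 and 7.11, and without non-stimulated replicate 2 that of Cxcl2 was 9.72.

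The promoters of 6 genes that rose steeply are printed so that letters of the factors named above can be compared among them; genes and motifs were chosen after the values were seen. Each is the RefSeq sequence of the 250 bases before the annotated start (GRCm38.p6, an older build than the one of the count tables), 5′ to 3′ on the gene's strand. Capitals mark the motifs searched on both strands: AP-1 TGANTCA, NFAT TTTTCC, kappaB (GGG, any 2 bases, TTTCC), EGR GCGTGGG and a CRE half-site TGACGT. A kappaB match can overlap an NFAT match. Positions are chr5:90903649-90903898 (plus strand) for Cxcl2, chr5:90785851-90786100 (plus) for Cxcl3, chr11:83578637-83578886 (minus) for Ccl9, chr3:37232637-37232886 (minus) for Il21, chr11:53634703-53634952 (minus) for Il13 and chr4:48045055-48045304 (plus) for Nr4a3.
Cxcl2: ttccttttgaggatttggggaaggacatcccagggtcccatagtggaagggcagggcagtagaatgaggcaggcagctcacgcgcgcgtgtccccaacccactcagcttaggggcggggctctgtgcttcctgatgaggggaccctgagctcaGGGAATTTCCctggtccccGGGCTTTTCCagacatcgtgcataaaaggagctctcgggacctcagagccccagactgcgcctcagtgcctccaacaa
Cxcl3: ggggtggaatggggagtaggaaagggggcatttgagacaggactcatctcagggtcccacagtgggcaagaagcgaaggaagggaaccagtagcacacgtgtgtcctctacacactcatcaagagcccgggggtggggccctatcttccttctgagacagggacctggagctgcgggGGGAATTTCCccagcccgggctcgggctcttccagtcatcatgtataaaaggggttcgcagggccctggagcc
Ccl9: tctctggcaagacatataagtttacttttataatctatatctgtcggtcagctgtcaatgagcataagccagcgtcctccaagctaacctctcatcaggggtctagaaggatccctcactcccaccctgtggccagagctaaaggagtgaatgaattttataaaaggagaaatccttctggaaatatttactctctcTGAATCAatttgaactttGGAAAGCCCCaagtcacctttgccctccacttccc
Il21: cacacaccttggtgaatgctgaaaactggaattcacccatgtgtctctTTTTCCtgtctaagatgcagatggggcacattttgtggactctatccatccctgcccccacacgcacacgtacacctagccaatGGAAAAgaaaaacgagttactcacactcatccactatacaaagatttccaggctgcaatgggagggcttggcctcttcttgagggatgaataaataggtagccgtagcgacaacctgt
Il13: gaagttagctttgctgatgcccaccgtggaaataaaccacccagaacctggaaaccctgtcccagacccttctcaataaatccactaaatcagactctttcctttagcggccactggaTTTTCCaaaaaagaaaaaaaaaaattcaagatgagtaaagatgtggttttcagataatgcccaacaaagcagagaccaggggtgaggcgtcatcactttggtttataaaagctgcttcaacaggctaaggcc
Nr4a3: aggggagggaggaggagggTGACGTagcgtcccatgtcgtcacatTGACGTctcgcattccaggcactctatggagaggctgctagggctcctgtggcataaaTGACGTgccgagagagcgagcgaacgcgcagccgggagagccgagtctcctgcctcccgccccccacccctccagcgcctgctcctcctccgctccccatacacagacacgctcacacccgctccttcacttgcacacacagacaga

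Cxcl2 held 2 kappaB matches and 1 NFAT match, Cxcl3 held 1 kappaB match, and Ccl9 held 1 kappaB and 1 AP-1 match. Il21 held 2 NFAT matches, Il13 held 1, and Nr4a3 held 3 CRE half-sites. Over 32851 RefSeq promoter windows of the same length, a kappaB match occurred in 1.41%, AP-1 in 6.75%, NFAT in 20.4%, EGR in 4.3% and the CRE half-site in 6.47%. Of the 15 genes with the largest rises 13 had a promoter in the RefSeq table: kappaB letters were in 3, AP-1 in 4, NFAT in 5, and EGR and the CRE half-site in 0. Of the 15 largest falls 10 had one, with kappaB letters in 0, AP-1, NFAT and the CRE half-site in 1 each, and EGR in 0. A match describes letters in this window and not a bound site.

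Ligands of the TNF superfamily mostly rose, while their receptors moved both ways. Of 12 measured ligand genes 8 rose and 2 fell (median 1.61). Tnfsf8, the CD30 ligand, had 61.3, 63.7 and 38.9 CPM before and 974, 1009, 1036 and 971 CPM after stimulation (4.19 ± 0.15; edgeR adjusted p = 4.1e-12), with the 4 stimulated libraries close together. Tnfsf11, the RANK ligand, rose by 3.04 ± 0.20, Tnf by 2.38 ± 0.17 and Lta, the lymphotoxin alpha gene, by 2.31 ± 0.38. Tnfsf13b, which encodes the B cell survival factor BAFF, fell from 17.3, 15.4 and 13.4 CPM to 3.65, 2.38, 1.38 and 2.26 CPM. Of 14 receptor genes 6 rose and 3 fell (median 0.16), and 4 rose without stimulated replicate 3. The costimulatory receptor genes Tnfrsf4 (OX40), Tnfrsf9 (4-1BB) and Tnfrsf18 (GITR) rose by 1.80 ± 0.26, 0.99 ± 0.26 and 0.91 ± 0.18, and Tnfrsf10b, a death receptor gene, by 1.83 ± 0.13. Tnfrsf1b, the gene of TNF receptor 2, fell from 67.0 to 34.3 CPM (-0.97 ± 0.12).

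Cytokine receptor genes were split, with 10 higher and 11 lower of 30 measured, against 26.7% and 27.1% of all genes, and a median of -0.03. Il17ra, a shared subunit of interleukin 17 receptors, had 156, 145 and 153 CPM in the non-stimulated libraries and 42.7, 43.2, 42.5 and 45.1 CPM in the stimulated ones (-1.80 ± 0.09; edgeR adjusted p = 1.6e-10). The values within each condition were nearly equal. Its partner Il17rb, part of the interleukin 25 receptor, fell from 3.51, 4.80 and 3.22 CPM to 0.0972, 0, 0.131 and 0.0538 CPM. Tgfbr1 and Ifngr1, receptor genes for TGF-beta and interferon gamma, fell by 1.64 and 1.69 on the log2 scale. Il12rb2, a subunit of the interleukin 12 receptor that marks Th1 cells, rose from 26.6, 52.4 and 50.6 CPM to 119, 145, 155 and 151 CPM (1.72 ± 0.33; edgeR adjusted p = 6.6e-04). Il1rl1, the receptor gene for interleukin 33, named after its values were seen, rose with overlapping groups (1.32 ± 0.44; edgeR adjusted p = 0.023), a call that was lost without non-stimulated replicate 1 or 3 (edgeR adjusted p = 0.092 and 0.074). Il7r, which encodes the interleukin 7 receptor, had 539.6 ± 53.6 CPM (SD, n = 3) before and 451 ± 82.4 CPM (SD, n = 4) after stimulation and was not called.

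Adhesion genes fell more often than genes as a whole, while the share of falls among homing genes was not far above that over all genes. Of 17 measured chemokine receptor and homing genes 1 rose, 6 fell and 10 were not called (median -0.38). Of 31 filamin, actin and adhesion genes 3 rose and 20 fell, or 19 without stimulated replicate 3 (median -0.45). Over all genes 26.7% rose and 27.1% fell. S1pr4, a sphingosine 1-phosphate receptor gene, went from 53.1, 50.5 and 70.9 CPM to 11.7, 10.5, 10.2 and 11.8 CPM (-2.40 ± 0.15; edgeR adjusted p = 1.5e-09). Selplg, a selectin ligand gene, went from 263, 230.3 and 272 CPM to 108, 83.2, 80.9 and 76.8 CPM (-1.55 ± 0.13; edgeR adjusted p = 4.3e-08). In both genes the lowest non-stimulated library was more than 2-fold above the highest stimulated one. The leukotriene receptor gene Ltb4r1 fell by 2.10 and the chemokine receptor gene Cxcr4 by 1.44 on the log2 scale. S1pr1 (-0.22 ± 0.32) and Ccr4 (-0.19 ± 0.11) were not called.

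Integrin genes moved in opposite directions. Itgav, the alpha V subunit, went from 185, 212 and 178 CPM to 672, 902, 1125 and 806 CPM (2.19 ± 0.19; edgeR adjusted p = 1.3e-07). Itgb3, a partner subunit of alpha V, went from 435, 601 and 749 CPM to 90.0, 102, 102 and 70.5 CPM (-2.71 ± 0.29; edgeR adjusted p = 4.7e-06). Itga4 and Itgb7, which pair in the gut-homing integrin, fell from 218 to 55.6 CPM and from 197 to 35.4 CPM. Itgae, another partner of Itgb7, fell by 1.97 on the log2 scale. The intermediate filament gene Vim went from 3324, 3379 and 3403 CPM to 1636, 1418, 1226 and 1199 CPM (-1.30 ± 0.13; edgeR adjusted p = 2.5e-07). Flna, the gene of filamin A, an ASB2 substrate, went from 897, 777 and 953 CPM to 594, 531, 429 and 536 CPM (-0.74 ± 0.13; edgeR adjusted p = 1.6e-04). Lcp1, an actin-bundling gene, fell by 0.68.

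**Figure D4:**
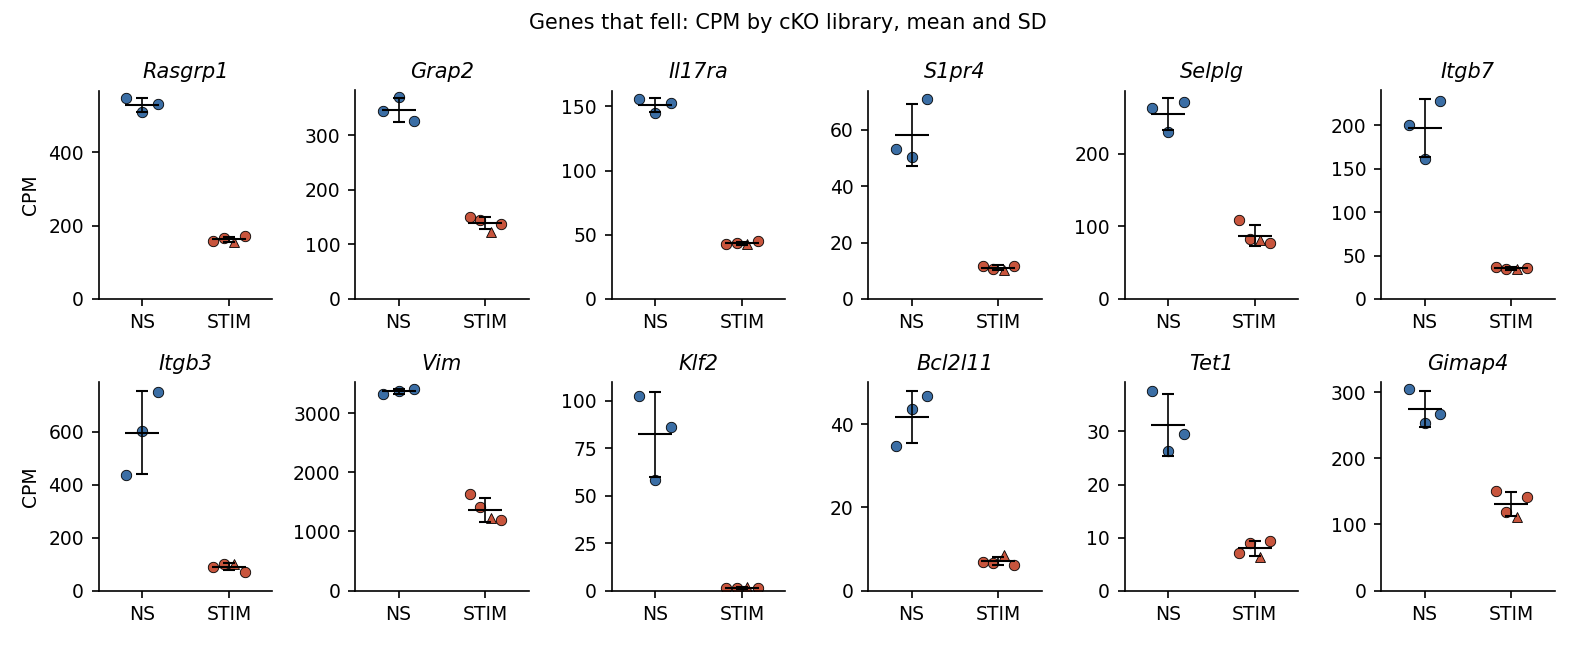
CPM of 12 genes that fell, of receptor signalling, homing, adhesion, quiescence, cell death, DNA demethylation and GTPases, in each non-stimulated (NS, blue) and stimulated (STIM, red) cKO library. Points are libraries, triangles mark stimulated replicate 3, bars give the mean and SD, and the groups do not overlap in any panel.

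Genes that carry the T cell receptor signal moved both ways. Of 24 measured genes of the receptor complex and proximal signalling 6 rose and 10 fell (median -0.24), against 26.7% and 27.1% of all genes, and 11 fell without stimulated replicate 3. Malt1, a protease and scaffold between the receptor and NF-kappaB, went from 397, 449.9 and 442 CPM to 963, 1134, 943 and 1289.5 CPM (1.33 ± 0.12; edgeR adjusted p = 5.8e-08). Rasgrp1, an activator of Ras, went from 548, 510.2 and 532 CPM to 159, 165, 156 and 171 CPM (-1.70 ± 0.09; edgeR adjusted p = 2.9e-10). The libraries within each condition lay close together for Rasgrp1. The adaptor gene Grap2 fell by 1.32 and the kinase gene Prkcq by 1.13 on the log2 scale. Rasgrp2, an activator of Rap1, fell from 25.6, 18.2 and 30.1 CPM to 1.02, 1.11, 1.70 and 1.02 CPM. Icos, a costimulatory receptor gene, had 672, 802 and 727 CPM before and 364, 472, 703 and 266 CPM after stimulation. Replicate 3 was the highest of the latter, and Icos was not called with all libraries. When 1 library was left out, its log2 fold change ran from -0.99 (without stimulated replicate 3) to -0.5 (without stimulated replicate 4).

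Among 15 measured inhibitory receptor genes 11 rose and 3 fell (median 1.37). Cd200 had 11.7, 7.44 and 7.98 CPM before and 376, 342, 342 and 389 CPM after stimulation (5.32 ± 0.19; edgeR adjusted p = 4.1e-12). Ctla4, a competitor of CD28 for its ligands, had 349, 462 and 433 CPM before and 1234, 1402, 1780.5 and 1036 CPM after stimulation (1.72 ± 0.24; edgeR adjusted p = 2.4e-05). The groups did not overlap for either gene. Btla rose by 2.80 ± 0.18 and Lag3 by 2.62 ± 0.19, and the genes of PD-1 (Pdcd1) and its ligand (Cd274), named after their values were seen, by 2.08 ± 0.15 and 2.57 ± 0.20. The falling members were Lair1, a collagen receptor gene (11.1 to 1.52 CPM), Cd160 (4.83 to 0.741 CPM) and Vsir, the VISTA gene (48.3 to 32.6 CPM, named after its values were seen). The call of Vsir (-0.57 ± 0.18; edgeR adjusted p = 0.014) was lost without non-stimulated replicate 3 or stimulated replicate 4 (edgeR adjusted p = 0.15 and 0.052).

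Transcription factors of activation rose, 17 of 22 measured with 2 lower (median 2.22). Nr4a3, an orphan nuclear receptor gene switched on by receptor signals, went from 1.37, 4.33 and 2.27 CPM to 139, 182, 186 and 102 CPM (5.85 ± 0.47; edgeR adjusted p = 4.7e-07). Egr1, an immediate early gene, went from 24.7, 61.7 and 22.0 CPM to 545, 622, 593 and 587 CPM (4.02 ± 0.47; edgeR adjusted p = 1.5e-05). The stimulated libraries were close together for Egr1, while non-stimulated replicate 2 stood above the other two; without it the log2 fold change was 4.65. Egr2 and the stress factor gene Atf3 rose by 4.34 ± 0.32 and 4.13 ± 0.40. Myc, the growth regulator, named after its values were seen, rose by 1.78 ± 0.22.

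Of 20 measured NFAT and NF-kappaB factors and inhibitors 16 rose and 2 fell (median 1.42). Nfkb2, of the non-canonical branch, went from 49.0, 80.1 and 51.4 CPM to 437, 398, 407 and 399 CPM (2.77 ± 0.23; edgeR adjusted p = 1.2e-07). Nfkbia, the gene of the inhibitor IkappaB alpha, went from 35.3, 48.3 and 35.8 CPM to 275, 250.2, 250.3 and 213 CPM (2.64 ± 0.19; edgeR adjusted p = 1.7e-08). Genes of a subunit and of other IkappaB family proteins rose side by side: Rel by 2.21 ± 0.17, Nfkbid by 2.48 ± 0.16 and Nfkbiz by 2.25 ± 0.18.

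Lineage and quiescence factors fell more often than they rose. Of 19 measured helper lineage factors 4 rose and 9 fell (median -0.31; 8 fell without stimulated replicate 3), and of 17 quiescence and naive-state factors 4 rose and 9 fell (median -0.45). Bcl6, of the repressor that directs the follicular helper fate, went from 41.6, 23.8 and 49.0 CPM to 7.49, 8.41, 9.04 and 10.9 CPM (-2.09 ± 0.29; edgeR adjusted p = 2.9e-05). Eomes, a factor of cytotoxic and Th1-type cells, went from 24.4, 35.8 and 57.1 CPM to 5.15, 5.29, 9.04 and 3.71 CPM (-2.77 ± 0.52; edgeR adjusted p = 6.6e-04). Non-stimulated libraries spread over about 2-fold for both genes. Id3, which holds back E proteins, fell by 2.44 and Tox by 1.68 on the log2 scale. Klf2, which keeps T cells quiescent, went from 102, 58.3 and 86.1 CPM to 1.26, 1.15, 2.10 and 1.56 CPM. Klf3 and the translation inhibitor gene Pdcd4 fell by 2.45 and 1.31, and Slfn2, a quiescence gene, rose by 1.43 ± 0.15.

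Feedback regulators of signalling showed 12 higher and 5 lower of 24 measured genes (median 0.30), and 10 higher without stimulated replicate 3. Rgs16, which shortens signals of G protein-coupled receptors, rose from 3.46, 7.50 and 8.57 CPM to 113, 116, 141 and 82.3 CPM (4.11 ± 0.35; edgeR adjusted p = 5.6e-07). Spry1, an inhibitor of Ras signalling, rose by 3.12 ± 0.18, the ERK phosphatase gene Dusp6 by 1.74 ± 0.24 and Rgs1 by 1.58 ± 0.34. Rnf128, the ubiquitin ligase gene GRAIL linked to T cell anergy, went the other way, from 77.7, 88.7 and 75.0 CPM to 22.2, 20.2, 18.4 and 11.8 CPM (-2.14 ± 0.19; edgeR adjusted p = 1.2e-07). Cblb, another ligase gene of anergy, was not called (-0.12 ± 0.13).

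Cell cycle genes held more lower than higher members, and most did not pass the test. Ccnd2, the gene of cyclin D2, had 645, 684 and 662 CPM before and 2193, 2359, 2397 and 2163 CPM after stimulation (1.78 ± 0.10; edgeR adjusted p = 2.9e-10). Ccnd3, of cyclin D3, had 192, 139.8 and 165 CPM before and 104, 69.5, 49.0 and 76.3 CPM after it (-1.15 ± 0.23; edgeR adjusted p = 7.1e-04). The 2 cyclins moved in opposite directions, and Cdk4, their kinase partner, was not called (0.09 ± 0.11). In the list of G1 cyclins and brakes 3 of 18 rose and 9 fell (8 without stimulated replicate 3), among the latter E2f2 (-1.38 ± 0.15) and Rbl2 (-0.95 ± 0.13), while the brake gene Cdkn1a rose (1.18 ± 0.16). Of 21 mitosis genes none rose, 8 fell and 13 were not called (median -0.32), where 27.1% of all genes fell. Mki67, the proliferation marker, went from 2825, 2723 and 2617 CPM to 1452, 1638, 1389 and 1452 CPM (-0.88 ± 0.11; edgeR adjusted p = 5.1e-06). Ccnb2, Cenpf and Top2a fell by 1.02, 0.88 and 0.67 on the log2 scale. Of 22 DNA replication genes 2 rose and 6 fell, a share of falls near the 27.1% over all genes. Without stimulated replicate 3 or on the log2(TPM + 0.1) scale 3 fell. Orc1 rose (1.14 ± 0.13) and Cdt1 and Mcm6 fell (-0.65 ± 0.11 and -0.53 ± 0.09).

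Among 14 measured BCL2 family genes 4 rose and 5 fell, against 26.7% and 27.1% of all genes. Without stimulated replicate 3 or with the cKO libraries fitted alone 3 fell. Bcl2l11, which encodes the death-promoting protein BIM, went from 34.7, 43.7 and 46.7 CPM to 6.95, 6.72, 8.52 and 6.24 CPM (-2.56 ± 0.18; edgeR adjusted p = 7.2e-09). Bcl2l1, which encodes the survival protein BCL-XL, went from 28.5, 38.7 and 39.7 CPM to 173, 145, 101 and 139 CPM (1.97 ± 0.19; edgeR adjusted p = 5.2e-07). The survival gene Bcl2a1b rose by 2.37 ± 0.18, a value that is uncertain because near-identical copies of this gene can share reads. Bcl2 itself had 495 ± 99.1 CPM (SD, n = 3) before and 549.7 ± 70.2 CPM (SD, n = 4) after stimulation and was not called.

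Biosynthetic programs held many rising members and few falling ones. Of 23 ribosome biogenesis genes 21 rose and none fell (median 0.93), of 18 cytosolic tRNA synthetase genes 16 rose (15 without stimulated replicate 3) and none fell (0.65), and of 26 genes of amino acid transport and the ATF4 program 19 rose and 1 fell (0.79). Rrp12, a ribosome export factor gene, went from 19.8, 23.5 and 19.3 CPM to 69.8, 67.4, 52.6 and 71.0 CPM (1.65 ± 0.19; edgeR adjusted p = 1.6e-06). Dkc1, of the pseudouridine synthase dyskerin, went from 68.4, 61.8 and 57.7 CPM to 142, 133, 142 and 147 CPM (1.17 ± 0.12; edgeR adjusted p = 2.5e-07). Nop16 rose by 1.62 ± 0.19 and Polr1b, a subunit of RNA polymerase I, by 1.17 ± 0.21. The histidyl, glutamyl-prolyl and leucyl tRNA synthetase genes Hars, Eprs and Lars rose by 1.16 ± 0.12, 1.01 ± 0.15 and 1.01 ± 0.11. Slc7a11, the cystine transporter gene, went from 6.31, 19.9 and 10.6 CPM to 30.4, 52.8, 59.2 and 54.6 CPM (2.01 ± 0.38; edgeR adjusted p = 7.3e-04). Asns, of asparagine synthetase, rose by 1.47 ± 0.15, and Pycr1, of proline synthesis, by 1.43 ± 0.23.

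Of 25 genes of folding and secretion in the endoplasmic reticulum 16 rose and 1 fell (median 0.44). Without stimulated replicate 3 14 of them rose, and on the log2(TPM + 1) scale 10. Hspa5, the chaperone BiP, went from 343, 459 and 411 CPM to 1040.5, 1152, 1735 and 1121 CPM (1.64 ± 0.22; edgeR adjusted p = 1.3e-05). Pdia6, a disulfide isomerase gene, went from 121, 126 and 141 CPM to 342, 323, 360.2 and 283 CPM (1.34 ± 0.11; edgeR adjusted p = 4.2e-08). Hyou1, Manf and Calr, of chaperones and a stress-induced factor, rose by 1.33 ± 0.18, 1.15 ± 0.17 and 1.07 ± 0.10. Stimulated replicate 3 was the highest library for all 5 of these genes. Ero1a, which oxidizes disulfide isomerases, rose from 798, 1026 and 769.9 CPM to 2522, 2737, 2603 and 2829.6 CPM (1.63 ± 0.16; edgeR adjusted p = 2.0e-07). The cytosolic chaperone gene Hspa8 fell from 2331, 2134 and 2248 CPM to 1631, 1299.9, 1399 and 1247 CPM (-0.68 ± 0.12; edgeR adjusted p = 1.2e-04).

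**Figure D5:**
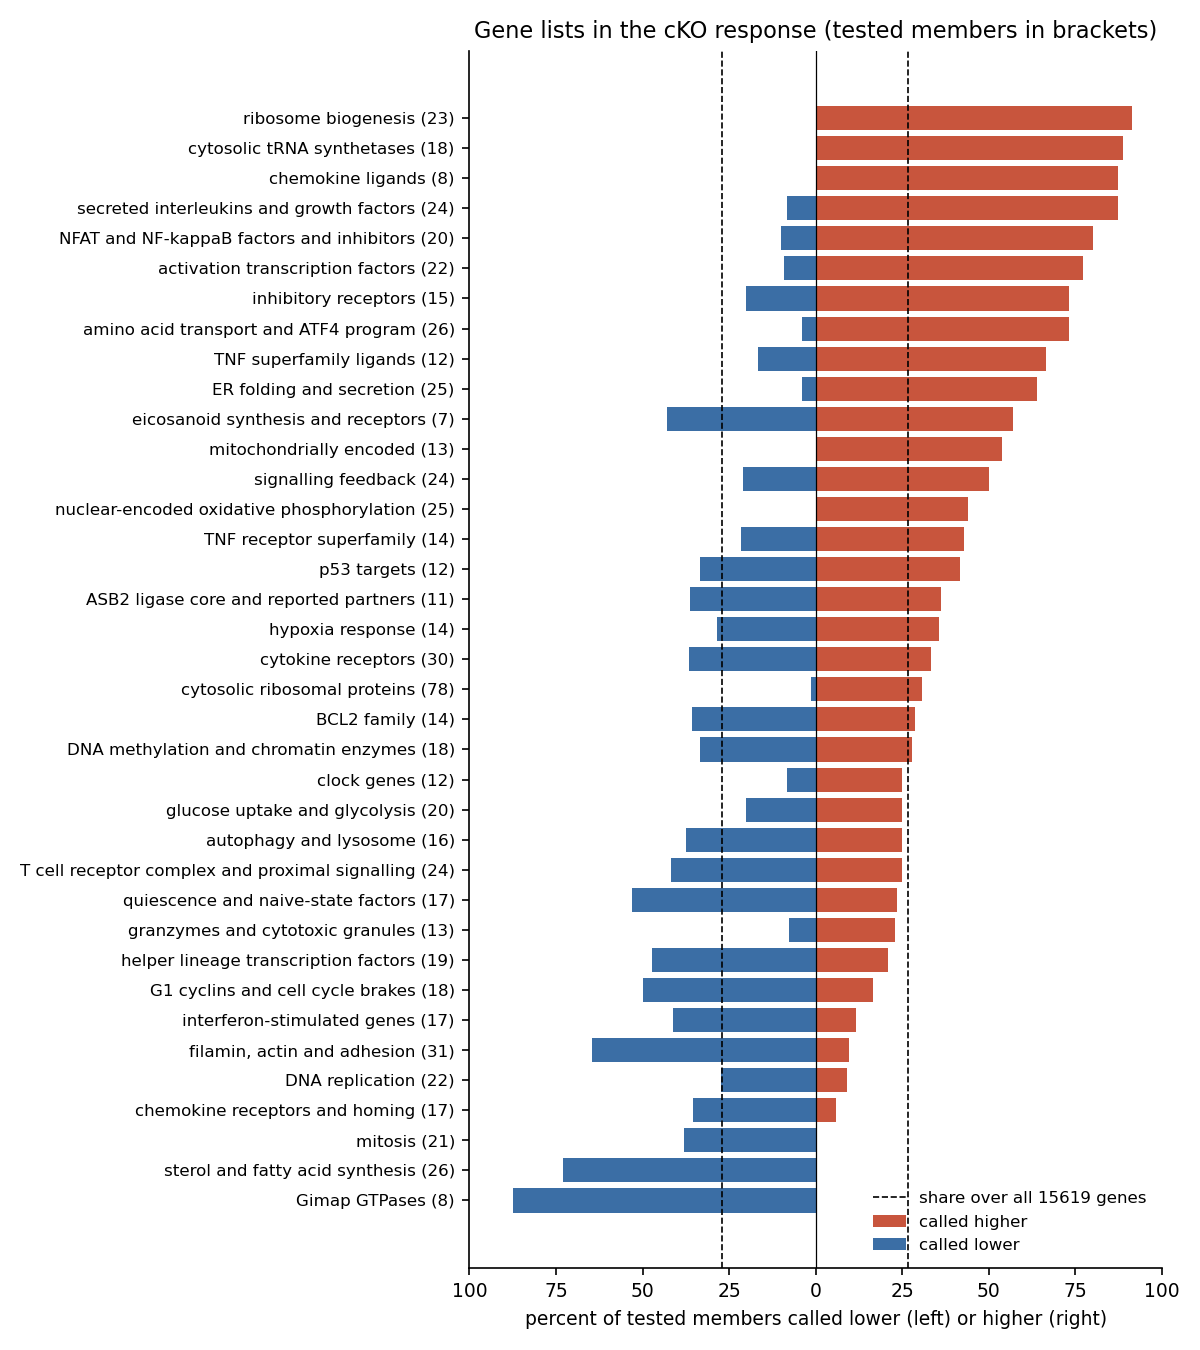
Percent of the measured members of each of 37 gene lists that were called higher (right, red) or lower (left, blue) in the cKO response; the number measured stands in brackets and dashed lines give the shares over all genes, 26.7% higher and 27.1% lower. Ribosome biogenesis and tRNA synthetases stand at the top with no lower member, and sterol synthesis and Gimap genes at the bottom with no higher member.

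Ribosomal protein genes changed less: 24 of 78 rose, a share near the 26.7% over all genes, and 1 fell, where 27.1% of all genes fell. Their median was 0.24. Without stimulated replicate 3 17 rose, where 4020 of 15610 genes rose. On the log2(TPM + 0.1) scale 13 rose, where 2583 of 15619 genes rose. Rpl35 and Rps26 were among the called members with the largest rises (0.69 ± 0.12 and 0.63 ± 0.09). These genes have many processed pseudogenes that can share reads, so their values are uncertain.

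The counts of glycolytic genes lay near the shares over all genes, while the list of oxidative phosphorylation held rises and no falls. Of 20 genes of glucose uptake and glycolysis 5 rose and 4 fell (median -0.05, and 0.04 without stimulated replicate 3), against 26.7% and 27.1% of all genes. On the log2(TPM + 0.1) scale 3 rose, where 2583 of all 15619 genes rose. Hk2, a hexokinase gene, went from 82.7, 81.9 and 70.2 CPM to 308, 299.8, 241 and 294 CPM (1.87 ± 0.14; edgeR adjusted p = 1.5e-08). Aldoc, an aldolase gene, went from 113, 82.5 and 96.0 CPM to 41.8, 30.8, 31.0 and 37.7 CPM (-1.46 ± 0.14; edgeR adjusted p = 1.8e-07). The glucose transporter genes split, with Slc2a1 at 0.78 ± 0.13 and Slc2a3 at -0.76 ± 0.16, and the lactate transporter gene Slc16a1 rose by 0.86 ± 0.11. Of 25 nuclear-encoded genes of oxidative phosphorylation 11 rose and none fell, but 10 rose without stimulated replicate 3 and 2 on the log2(TPM + 0.1) scale; Cycs, of cytochrome c, and Atp5b, of ATP synthase, rose by 1.00 ± 0.13 and 0.63 ± 0.12.

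Of 13 mitochondrially encoded genes 7 rose and none fell, and 6 rose without stimulated replicate 3 and 4 with the cKO libraries fitted alone. Without that replicate the median went from 0.56 to 0.26. The cytochrome oxidase gene mt-Co1 had 20205, 19256 and 18230.4 CPM before and 24689, 24923, 44602 and 28232 CPM after stimulation. Replicate 3 was the highest of the stimulated libraries by a wide margin, and the log2 fold change was 0.67 ± 0.17 with it and 0.44 without it (edgeR adjusted p = 0.0034 and 0.0029). Likewise mt-Co3 and mt-Nd4 changed by 0.51 and 0.46 without this library and by 0.73 and 0.70 with it.

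Of 26 genes of sterol and fatty acid synthesis none rose and 19 fell (median -0.61), and 16 fell without stimulated replicate 3. Sc5d, a desaturase gene of late cholesterol synthesis, went from 125, 95.0 and 126 CPM to 69.4, 64.6, 62.1 and 56.6 CPM (-0.87 ± 0.12; edgeR adjusted p = 1.3e-05). Lss, of lanosterol synthase, fell by 0.86 on the log2 scale, and replicate 3 was the lowest of its 4 stimulated libraries. Of 14 hypoxia genes 5 rose and 4 fell, against 26.7% and 27.1% of all genes. Vegfa, a vessel growth factor gene, rose by 1.32 ± 0.12. Kdm3a, a histone demethylase gene, went from 291, 238 and 198 CPM to 73.9, 78.6, 78.6 and 83.2 CPM (-1.63 ± 0.12, edgeR adjusted p = 5.2e-09).

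Gimap genes, which encode GTPases of lymphocyte survival, fell in 7 of 8 measured members, and none rose (median -0.58). Gimap4 went from 305, 253 and 266 CPM to 151, 119, 111 and 142 CPM (-1.07 ± 0.11; edgeR adjusted p = 5.7e-07). Gimap7 and Gimap6 fell by 1.07 and 0.78, while Gimap5 had a log2 fold change of 0.22 ± 0.09 and was not called (edgeR adjusted p = 0.051). Without stimulated replicate 3 1 member rose and 7 fell. Of 17 interferon-stimulated genes 2 rose and 7 fell; 3 rose without stimulated replicate 3, 1 on the log2(TPM + 0.1) scale and 0 on the log2(TPM + 1) scale, and 8 fell on each of these scales. Mx1, an antiviral GTPase gene, went from 14.9, 13.5 and 14.7 CPM to 3.74, 3.36, 2.95 and 1.51 CPM (-2.30 ± 0.28; edgeR adjusted p = 3.0e-06). Rsad2, of viperin, fell by 2.24 on the log2 scale. Gvin1, an interferon-inducible GTPase gene with near-identical copies and therefore an uncertain value, fell from 757 to 165 CPM.

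Chromatin enzymes were split, with 5 higher (3 on the log2(TPM + 0.1) scale and 6 without stimulated replicate 3) and 6 lower of 18 genes (median -0.07). These counts lay near the shares over all genes, 26.7% higher and 27.1% lower. Tet1, which oxidizes methylated cytosine, went from 37.7, 26.4 and 29.6 CPM to 7.19, 9.02, 6.42 and 9.36 CPM (-1.96 ± 0.17; edgeR adjusted p = 4.1e-08). Its relative Tet3 fell by 0.62, and Ezh1, a histone methyltransferase gene of Polycomb, by 0.98. Kdm6b, a demethylase gene for the mark Polycomb lays down, went from 55.7, 75.4 and 62.5 CPM to 203, 192, 171 and 188 CPM (1.55 ± 0.13; edgeR adjusted p = 3.5e-08). Eed, another Polycomb subunit gene, rose by 1.18 ± 0.11.

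Smaller lists moved both ways. Over all genes 26.7% rose and 27.1% fell, and the rises among clock and granule genes lay near that share. Of 7 measured genes of eicosanoid synthesis and receptors 4 rose and 3 fell, and 2 rose on the log2(TPM + 0.1) scale. Hpgds, of prostaglandin D2 synthesis, went from 5.09, 3.54 and 7.21 CPM to 0.389, 0.328, 0.131 and 0.323 CPM (-4.11 ± 0.35; edgeR adjusted p = 4.1e-08). Ptgs2, of cyclooxygenase 2, went from 3 to 118 counts, a ratio of 30.3 (95% interval 10.1 to 149), and Ptger2, a receptor gene for prostaglandin E2, rose by 1.44 ± 0.12. Of 16 autophagy and lysosome genes 4 rose and 6 fell (3 and 7 without stimulated replicate 3), and the related genes Gabarapl1 and Map1lc3b had log2 fold changes of 1.10 ± 0.13 and -1.02 ± 0.10, in opposite directions. Of 12 clock genes 3 rose and 1 fell: Per2 went from 4.84, 4.75 and 3.49 CPM to 13.7, 13.7, 12.8 and 14.7 CPM (1.66 ± 0.15; edgeR adjusted p = 1.1e-07), Cry1 rose by 0.79 ± 0.14, and the output gene Dbp fell by 1.82. Of 13 granzyme and granule genes 3 rose and 1 fell, Serpinb6b, a protease inhibitor gene, by 1.88 ± 0.33 and Ctsw, of cathepsin W, by -1.82 ± 0.34. Of 12 p53 targets 5 rose and 4 fell (3 without stimulated replicate 3), among them Eda2r (1.84 ± 0.25) and Sesn1 (-1.45 ± 0.15).

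The genes of the ASB2 ligase and its reported partners held 4 higher and 4 lower of 11 measured members, Asb2 and Flna among the lower. Over all genes 26.7% were higher and 27.1% lower. The median of the 11 members was 0.07, and -0.07 on the log2(TPM + 0.1) scale, where 3 were higher and 2 lower. Without stimulated replicate 3 5 were higher and 3 lower. Jak2, a kinase gene of cytokine receptors, went from 724, 769.7 and 609.9 CPM to 1348, 1369.6, 1358 and 1637 CPM (1.03 ± 0.11; edgeR adjusted p = 3.6e-07). Cul5, the cullin scaffold of the ligase, went from 61.2, 64.2 and 71.1 CPM to 89.7, 104, 105 and 112 CPM (0.65 ± 0.11; edgeR adjusted p = 9.3e-05). Both were higher in every stimulated library than in any non-stimulated one.

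The largest changes outside these lists were in genes of varied function. Crabp2, of retinoic acid binding, went from 0.0509, 0.106 and 0.136 CPM to 126, 83.9, 50.8 and 49.0 CPM, and Pdpn, of podoplanin, from 0 counts to 793, at least 203-fold higher than the floor. Tpbg, Olr1 and Slc13a3, of a surface glycoprotein, a scavenger receptor and a dicarboxylate transporter, rose to 101 ± 23.1, 174 ± 29.9 and 38.9 ± 4.18 CPM (SD, n = 4) from under 1.2 CPM in every non-stimulated library. Among the falls, Pcyt1b, of phosphatidylcholine synthesis, went from 47.1, 35.3 and 46.9 CPM to 1.41, 1.76, 2.29 and 1.56 CPM (-4.63 ± 0.23; edgeR adjusted p = 1.2e-10). Osbpl5, of a lipid transfer protein, went from 27.4, 17.4 and 33.5 CPM to 1.22, 1.48, 1.31 and 1.45 CPM (-4.25 ± 0.28; edgeR adjusted p = 4.0e-09). Non-stimulated replicate 2 was the lowest of its group for both, and still more than 10-fold above the stimulated libraries. Plxdc1, a receptor gene, fell by 4.28, Gucy2e, a guanylate cyclase gene, by 4.30 and Krt80, a keratin gene, by 6.62 on the log2 scale. The largest losses of CPM included Adamtsl3, of an extracellular matrix protein, from 926 to 334 CPM, Ahnak, of a scaffold protein, from 1377 to 624 CPM, and Ptma, of prothymosin alpha, from 1649.6 to 1057 CPM.

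Marker lists were read for the labelled cell type and for others that a culture from spleen could hold. In the CD4 T cell list 3 of 10 genes rose and 5 fell, with summed levels of 3077 to 3149.9 CPM in non-stimulated and 2912.5 to 3531 CPM in stimulated libraries; Cd28 fell (-0.41 ± 0.11) and Cd2, an adhesion receptor, rose (0.89 ± 0.14). Of 9 measured Th2 markers 5 rose and 1 fell, and Ptgdr2 had 4 counts in all. The gamma delta T cell list had 4 measured genes, all lower, and summed to 53 to 74.6 CPM before and 23.4 to 40.6 CPM after stimulation; Trdc, its receptor gene, went from 24.6, 33.8 and 32.3 CPM to 16.4, 17.3, 18.6 and 10.3 CPM. The endothelial list summed to 165 to 197 CPM before and 44.7 to 58.2 CPM after stimulation, nearly all of it from Pecam1 (-1.79 ± 0.15), while Tie1 and Emcn had 0 counts and Cdh5 had 6 in the 7 cKO libraries. The list of monocytes, macrophages and neutrophils had 2 of 3 measured genes lower and summed to 15 to 20.6 CPM before and 3.60 to 6.56 CPM after stimulation, with Lyz2, S100a8 and S100a9 at 0 counts. Haemoglobin genes had 0 counts, and the erythroid list summed to at most 0.615 CPM. Ighm, a heavy chain gene on the plasma cell list, went from 80.7, 53.9 and 81.5 CPM to 24.9, 18.4, 17.2 and 24.5 CPM, while Jchain had 10 counts over the 7 libraries, and Sdc1 on the same list rose (4.42 ± 0.35). Of 6 measured genes each, the CD8 T and NK cell list had 1 higher and 1 lower (0 and 2 without stimulated replicate 3) and the B cell list 1 higher. The summed level was 13.8 to 37.6 CPM for CD8 T and NK cells and 4.17 to 8.39 CPM for B cells over all cKO libraries. Dendritic cells had 2 higher and 1 lower of 3 measured genes, mast cells and basophils 1 each way of 2, platelets and megakaryocytes none called of 1, and stroma 2 lower of 2. Their summed levels stayed at or under 15.4 CPM in every cKO library. The part of these cells in the results was not tested.

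The cKO response was set against that of control cells by testing the difference of the 2 responses for each gene. edgeR called 0 of 15619 genes (0%), with 605 (3.87%) at an unadjusted p under 0.05. That share is below the 5% that this threshold gives by chance alone. DESeq2 called 2, Pgk1-rs7 and Gm14308, named after their values were seen, with 605 genes at an unadjusted p under 0.05. None of the changes above can therefore be called particular to cKO cells, and a p that misses the threshold does not show that the responses were alike. Il5 rose by 0.95 ± 0.35 more on the log2 scale in cKO than in control cells (unadjusted p = 0.015), and its mean was 1.88 and 3.43 CPM in cKO and control cells before stimulation and 1089 and 1035 CPM after it. Egr3, an activation factor gene, had a difference of 0.55 ± 0.21 (unadjusted p = 0.017). Differences of most other named genes, Il4 and Il13 among them, are not reported here. S1pr2, another sphingosine 1-phosphate receptor gene, was among the 10 genes with the smallest p. It had 9.62, 9.98 and 8.98 CPM before and 13.6, 12.4, 11.4 and 13.7 CPM after stimulation in cKO cells and means of 13.8 and 11.3 CPM in control cells, a difference of 0.72 ± 0.16 (unadjusted p = 0.00034). All 3 had an edgeR adjusted p of 1.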

How the data were processed

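RNA of Th2 cells was sequenced in 15 libraries, of which the 7 cKO libraries are described. Per the labels, a stranded total RNA kit with ribosomal RNA depletion was used. The authors deposited unscaled estimated counts and TPM (length-scaled transcript abundance) for 56748 genes. GRCm39, Salmon 1.10.1, STAR 2.7.9a and cutadapt 3.4 are named per the submitters' processing notes; their settings and the annotation release are not given in the sources used here.

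From these files, with R 4.3.3, estimated counts were rounded and genes kept by filterByExpr of edgeR 4.0.16, which left 15619 genes with at least 99.9% of counts. Scaling was by TMM (trimmed mean of M-values), and a robust quasi-likelihood model with 1 mean per group was fitted to all 15 libraries (4 groups), with two-sided tests and p-values adjusted by Benjamini-Hochberg over those genes (threshold 0.05). Standard errors (SE) of log2 fold changes were taken as the size of the fold change divided by the square root of the edgeR quasi-likelihood F. The biological coefficient of variation was 15.4%. A group with 0 counts was given a floor of 3 counts; where it had 1 to 3 counts the count ratio is given with its 95% exact (Clopper-Pearson) interval, and both cover counting error only. The functions for the main edgeR test, DESeq2 and limma were tested on simulated counts. The other alternatives and calculations were not.

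Alternatives were DESeq2 1.42.0, RLE (relative log expression) size factors, no filter, 1 CPM in 3 libraries, a replicate block within genotype, limma 3.58.1 on log2(TPM + 0.1) and log2(TPM + 1), no mitochondrial genes, only cKO libraries and leaving out each library. The comparison and its 37 program and 13 marker lists (842 genes, 762 tested, 21 matched through older symbols) were chosen with earlier results of these data known. Genes named are Asb2, Gata3, Il4, Il5 and Il13; the 15 largest rises and falls with at least 5 CPM and no overlap; the 10 largest gains and losses of CPM; per program list the 5 called members with the largest change and the 2 most abundant members not called; the 10 smallest p of the difference; and 2 markers per list. Clone names, small RNAs, pseudogenes and receptor segments were left out. Some genes the rule takes are not reported here. Genes given as named after their values were seen are outside it, as are markers at or near 0 counts.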

Additional observations from a re-analysis of the deposited data

Results flagged for a closer look

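In 13 of 195 values examined over the 4 stimulated cKO libraries, 1 library stood further from the other 3 than Dixon's 95% critical value allows. Chance alone gives about 5%, and the share flagged lay near that. Of the 13 flagged values 8 were in replicate 3, 3 in replicate 1, 2 in replicate 4 and 0 in replicate 2. The share flagged does not tell which single values are due to chance, and the cause was not tested. Replicate 3 was the highest for the chaperone genes Hspa5 (1735 CPM, against 1040.5 to 1152 in the others), Calr (826 against 681 to 697), Hyou1 (411 against 334 to 339.6) and Manf (252 against 151 to 162). It was also the highest for Srgn (5753 CPM, against 2959.5 to 3429), Serpinb6b (219 against 110.2 to 117) and Rasgrp2 (1.70 against 1.02 to 1.11), and the lowest for Polr1b (29.2 against 46.0 to 48.1). The same library had the highest mitochondrial share, 9.43%, which was among the values examined and was not flagged. The part of this share in the 8 values was not tested. Replicate 1 was the highest for Gimap5 (63.8 CPM, against 56.2 to 56.9) and Mcm6 (283 against 257 to 261) and the lowest for Sesn1 (10.2 against 11.2). Replicate 4 was the highest for Jak2 (1637 CPM, against 1348 to 1369.6) and the lowest for Tnfsf11 (82.4 against 129.7 to 136).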

How the results depend on the processing

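Of the 185 called genes named in the text, S1pr2 lost its call on both TPM scales and Il1rl1 and Vsir when single libraries were left out; no other call was lost and no direction turned under DESeq2, other size factors or filters, the replicate block, TPM scales, the cKO libraries alone or leaving out any 1 cKO library. On log2(TPM + 0.1) and log2(TPM + 1) the genes that rose were 2583 and 2526, and at least 2-fold rises and falls on log2(TPM + 1) were 666 and 892; a pseudocount lowers folds of weak genes by construction, and the cause of the lower count of calls was not tested. Leaving out 1 cKO library gave 3693 to 4133 genes that rose, 3693 to 4088 that fell, 1239 to 1424 and 1748 to 1872 of them at least 2-fold, and 0 for the difference between genotypes, also without any 1 control library. That difference gave 2 genes with DESeq2, 1 with a replicate block within genotype (Pgk1-rs7, also called by DESeq2) and 2 on log2(TPM + 1) (Gstp2 and BC147527); these were named after their values were seen, and the cause was not tested. With the replicate block 3811 genes rose and 3889 fell. Under it 4 interferon-stimulated genes rose (2 without it), 5 granzyme and granule genes (3), 2 homing genes (1) and 2 CD8 T and NK cell markers (1), while 1 B cell marker (0), 1 activation factor (2) and 0 ribosomal protein genes (1) fell. On both TPM scales 1 secreted factor (2), 1 NFAT or NF-kappaB gene (2) and 2 ribosomal protein genes (1) fell, and no CD8 T and NK cell marker rose (1). With DESeq2 or RLE size factors 1 Gimap gene rose (0). Same-numbered cKO libraries deviated together with correlations of 0.0925, 0.106 and 0.136. Stimulated replicates 1, 2 and 3 each correlated best with the non-stimulated library of the same number. Their correlations with non-stimulated libraries of another number ran from -0.182 to 0.0424. Stimulated replicate 4 has no non-stimulated library of its number and correlated best with non-stimulated replicate 1 (0.145). The main test did not use the numbers as pairs, and whether they mark pairs was not tested. The rise of the mitochondrial share was 2.03 percentage points with all libraries and 1.10 without stimulated replicate 3. Without that library 17 of 37 program lists kept their counts, with 271 of 288 higher and 165 of 177 lower members called both times. Leaving out a non-stimulated library moved fitted folds of genes with few counts there by over 1.5 times (log2 values): without replicate 2 Pth had 11.59 and Slc13a3 8.27; without replicate 3 Pth had 10.12 and Ptgs2 5.50. With all libraries Pth had 10.70, Slc13a3 7.26 and Ptgs2 4.71.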
